A study of Homo sapiens with 9 samples.

Results

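The TRAIL and FAS death receptor pathway was examined through 10 genes, chosen by name from the 26485 genes of the deposited tables: the ligand TNFSF10 (TRAIL), its receptors TNFRSF10A, TNFRSF10B, TNFRSF10C and TNFRSF10D, the receptors FAS and TNFRSF1A, the adaptor FADD, the initiator caspase CASP8 and its inhibitor CFLAR. The cells were MDA-MB-231, a widely used triple-negative breast cancer cell line, expressing a nonspecific (NS) shRNA, ASAH1 shRNA #1 or ASAH1 shRNA #2, with 3 RNA-seq libraries in each group. ASAH1 encodes acid ceramidase, which breaks down ceramide, and the question was how its knockdown altered gene expression. The control arm rested on 1 nonspecific hairpin, and the replicates of a group are called biological but are not described as separately derived lines, so p-values measure the spread between these libraries. Both hairpins were compared with the same 3 NS shRNA libraries, and their results are therefore not independent of each other.

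TRAIL and FAS ligand kill cells from the outside: a bound receptor gathers FADD, FADD gathers CASP8, and active CASP8 cuts the effector caspases. CFLAR (c-FLIP) resembles CASP8 and competes with it at FADD, while decoy receptors bind TRAIL without passing on the death signal. TNFRSF1A, the main TNF receptor, can join the same machinery but more often drives survival signals through TRADD. Triple-negative lines with mesenchymal features are known as some of the breast cancer lines most sensitive to TRAIL.

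The promoters of TNFSF10, FADD and TNFRSF1A are shown because all 3 genes were lower with ASAH1 shRNA #1 and each has a single start in the RefSeq table (GRCh38.p14). Each sequence ends where the gene begins in GENCODE v44 or at the RefSeq start, whichever lies further upstream, and is read toward the gene. Capitals mark matches to 3 short motifs searched on both strands, which are GAAA followed by any 2 bases and GAAA (an interferon response type of element), GGGCGG (a GC box) and TGANTCA (an AP-1 type of element).
TNFSF10, chr3:172523476-172523680, minus strand: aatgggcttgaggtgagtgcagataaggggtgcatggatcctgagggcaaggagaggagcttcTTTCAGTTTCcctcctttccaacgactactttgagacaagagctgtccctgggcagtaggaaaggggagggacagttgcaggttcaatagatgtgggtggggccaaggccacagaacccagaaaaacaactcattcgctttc
FADD, chr11:70203046-70203295, plus strand: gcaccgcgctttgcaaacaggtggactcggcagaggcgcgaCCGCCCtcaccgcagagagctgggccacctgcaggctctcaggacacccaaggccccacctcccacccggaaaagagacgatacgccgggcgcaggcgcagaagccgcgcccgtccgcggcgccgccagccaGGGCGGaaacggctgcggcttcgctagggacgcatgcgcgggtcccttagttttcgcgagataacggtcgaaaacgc
TNFRSF1A, chr12:6342115-6342326, minus strand: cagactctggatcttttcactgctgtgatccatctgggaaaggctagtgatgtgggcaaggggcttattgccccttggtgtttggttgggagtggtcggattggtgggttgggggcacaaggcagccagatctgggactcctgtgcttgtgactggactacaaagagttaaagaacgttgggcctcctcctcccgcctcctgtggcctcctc
TNFSF10 held 1 match to the GAAA pair motif, on the opposite strand, between 187 and 178 bases upstream of its RefSeq start. This motif was present in 3.02% of the 35116 human promoter windows of 250 bases in the table. FADD held 2 GC boxes, one on each strand, and a GC box was present in 42.6% of all windows. TNFRSF1A held no match to any of the 3 motifs over its 250 bases. TGANTCA was present in 6.57% of all windows and in none of the 3 shown. In all, 13 windows of 6 of the 10 genes were scanned, since FAS and CASP8 have 3 listed starts each and CFLAR has 4. The promoters of TNFRSF10A, TNFRSF10B, TNFRSF10C and TNFRSF10D were not scanned. The GAAA pair motif was found in no scanned window other than that of TNFSF10, and this single match was not tested. TGANTCA was found in 1 window each of FAS, CASP8 and CFLAR, and a GC box in 3 windows of FAS, 1 of CASP8 and 2 of CFLAR. The FAS windows that start at 88990548 and 88990664 overlap and hold the same GC box.

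The reads recovered on genes ran from 23806003 to 49659106 per library. ASAH1 itself fell with both hairpins, by log2 fold changes of -1.76 with shRNA #1 and -2.63 with shRNA #2 (limma, adjusted p = 9.49e-09 and 5.42e-10). VIM, CD44 and EGFR, taken as markers of this line, were expressed in each library, and ESR1 and PGR had at most 2 reads in any library. EGFR was higher with shRNA #1 and shRNA #2, by log2 fold changes of 1.18 and 1.29 (limma adjusted p = 9.02e-05 and 2.58e-05). VIM was lower, at -0.27 and -0.67 (limma adjusted p = 0.000309 and 6.32e-07), and CD44 passed the test with neither hairpin. ERBB2 mRNA was present, with 1530 to 3581 reads. Of 5 markers of other cell types, PTPRC had 1 to 8 reads and CD3E 0 to 3, and PECAM1, COL1A1 and CD68 passed the filter. Their summed level was 2980 to 3416 scaled reads with NS shRNA, 3444 to 4229 with shRNA #1 and 1541 to 1678 with shRNA #2, most of it CD68, a macrophage marker that is also made by other cells. The part of these markers in the results that follow was not tested.

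With ASAH1 shRNA #1, 7 of the 10 genes passed the test (limma on log2(normalized count + 1), adjusted p below 0.05), 2 higher (TNFRSF10A and TNFRSF10B) and 5 lower (TNFSF10, TNFRSF10D, FAS, FADD and TNFRSF1A). Over all 14341 genes tested, 66.1% passed, 32.8% higher and 33.3% lower. With ASAH1 shRNA #2, 8 passed, 4 higher (TNFRSF10A, TNFRSF10B, TNFRSF10D and CFLAR) and 4 lower (FAS, FADD, CASP8 and TNFRSF1A). Here 66.9% of 14250 genes passed, 33.5% higher and 33.4% lower. In a direct comparison of the hairpins (edgeR, quasi-likelihood, on the reads of all 9 libraries), 9 of the 10 genes differed, 6 higher and 3 lower with shRNA #2, against 64.0% of 14360 genes in all, 31.4% higher and 32.6% lower. The share of the 10 genes that passed was thus near the share of all genes in the comparisons with NS shRNA. The median log2 fold change of the 10 genes came to -0.28 for shRNA #1 and -0.03 for shRNA #2, beside medians of 0.00128 and 0.0128 over all genes tested. All 10 genes passed the filter on low values.

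**Figure D1:**
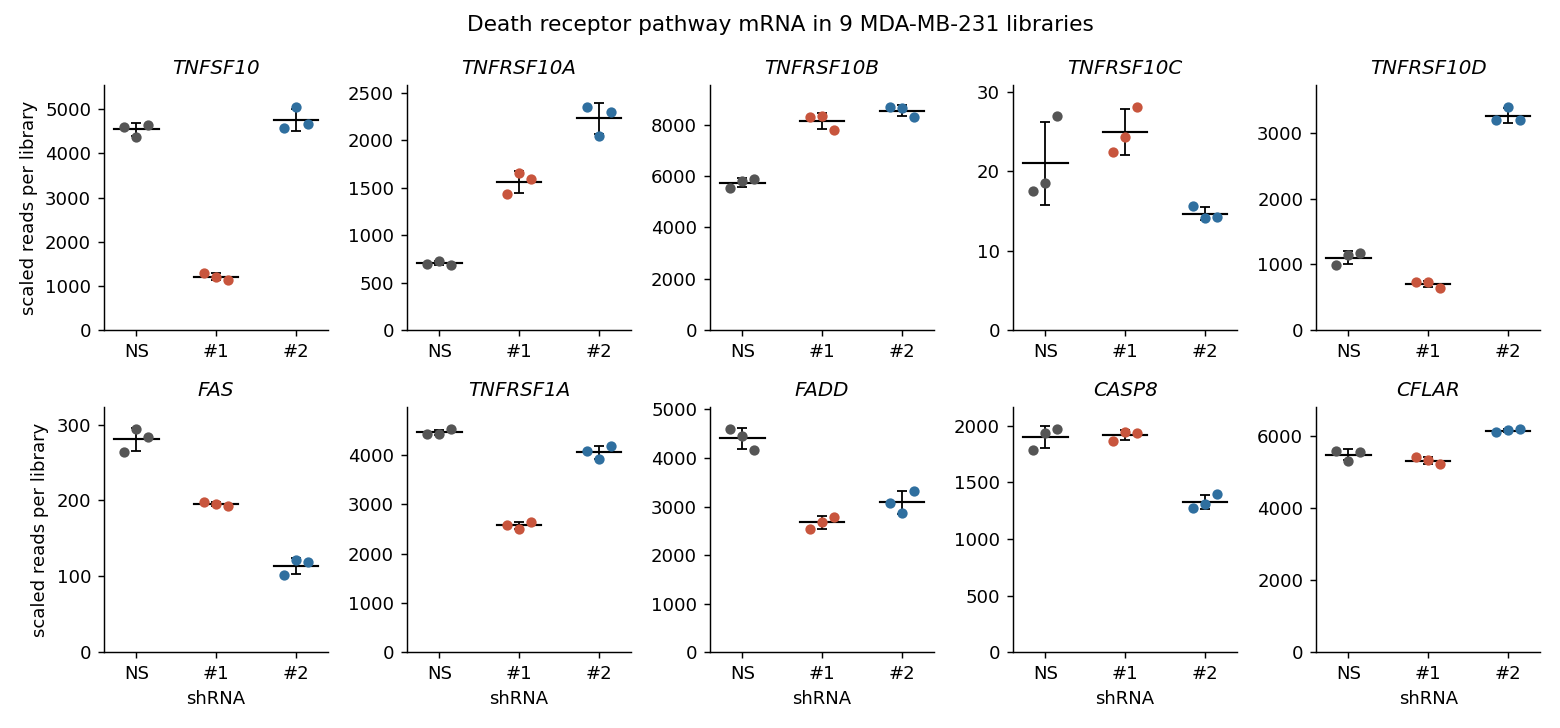
Scaled reads (recovered reads divided by size factors of the 9 libraries, linear axes from 0) of the 10 genes in each library with NS shRNA, ASAH1 shRNA #1 and ASAH1 shRNA #2; points are libraries, wide lines are means and error bars are the SD (n = 3). TNFSF10 stands low in the shRNA #1 libraries alone, at 1132 to 1291, TNFRSF10D stands high in the shRNA #2 libraries alone, at 3188 to 3388, and TNFRSF10A rises above NS shRNA with both hairpins.

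TNFSF10, which encodes TRAIL itself, spans 172505508 to 172523475 of chromosome 3 (hg38, as for each position given) and has 5 exons in its canonical transcript. On a scale common to the 9 libraries (scaled reads: the recovered reads divided by size factors), its values were 4608, 4368 and 4651 with NS shRNA, 1291, 1197 and 1132 with shRNA #1, and 4570, 5044 and 4654 with shRNA #2. The shRNA #1 libraries lay far below all others, and those of NS shRNA and shRNA #2 overlapped. In the deposited scale of the first comparison, the mean normalized count fell from 4344 ± 150 to 1154 ± 74.9 (SD, n = 3 each), a log2 fold change of -1.91 (SE 0.06, limma adjusted p = 1.62e-08). With shRNA #2 the log2 fold change was 0.07, with a 95% interval from -0.06 to 0.19 and an adjusted p of 0.328 from limma. The hairpins differed by a log2 ratio of 1.97 (edgeR, adjusted p = 8.15e-10). The promoter shown above with 1 match to the GAAA pair motif belongs to this gene. In such bulk libraries, fewer cells with a transcript and less of it per cell cannot be told apart.

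TNFRSF10A and TNFRSF10B encode DR4 and DR5, the TRAIL receptors with a full death domain. They lie on chromosome 8, from 23190452 to 23225102 and from 23020133 to 23069031, at either end of a 205.0 kb stretch that also holds both decoy receptor genes. TNFRSF10A had 701, 730 and 687 scaled reads with NS shRNA, 1431, 1657 and 1591 with shRNA #1, and 2348, 2045 and 2296 with shRNA #2. The 3 groups did not overlap, with NS shRNA lowest and shRNA #2 highest. The normalized count rose from 675 ± 20.03 to 1492 ± 113 with shRNA #1 (SD, n = 3 each), a log2 fold change of 1.14 (SE 0.07, limma adjusted p = 7.98e-07). With shRNA #2 it rose from 730 ± 24.3 to 2306 ± 172 (SD, n = 3 each), a log2 fold change of 1.66 (SE 0.07, limma adjusted p = 3.84e-08). TNFRSF10A was also higher with shRNA #2 than with shRNA #1, by 0.50 on the log2 scale (edgeR, adjusted p = 7.55e-05).

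TNFRSF10B had 5553, 5800 and 5869 scaled reads with NS shRNA, 8311, 8355 and 7786 with shRNA #1, and 8678, 8664 and 8286 with shRNA #2. Each knockdown library lay above each NS shRNA library, and the hairpins overlapped. The log2 fold changes were 0.51 with shRNA #1 (SE 0.05, limma adjusted p = 1.20e-05) and 0.57 with shRNA #2 (SE 0.05, limma adjusted p = 3.90e-06). TNFRSF10B was the only one of the 10 genes for which the difference between the hairpins did not pass the test, with a log2 ratio of 0.06 (edgeR, adjusted p = 0.287). The ratio of TNFRSF10A to TNFRSF10B, with reads taken per kb of transcript, was 0.183 ± 0.00764 with NS shRNA, 0.285 ± 0.0254 with shRNA #1 and 0.388 ± 0.0328 with shRNA #2 (SD, n = 3). No library of either hairpin overlapped NS shRNA in this ratio (exact permutation test, two-sided p = 0.1 each, the smallest that 3 libraries against 3 allow).

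Of the decoy receptor genes, TNFRSF10D passed the test with both hairpins, in opposite directions, and TNFRSF10C passed with neither. TNFRSF10D encodes DcR2, a decoy with a truncated death domain, on chromosome 8 from 23135588 to 23164027. It had 989, 1142 and 1175 scaled reads with NS shRNA, 739, 726 and 643 with shRNA #1, and 3199, 3388 and 3188 with shRNA #2. All 3 groups were separate, with shRNA #1 below and shRNA #2 above NS shRNA. With shRNA #1 the normalized count fell from 1054 ± 93.8 to 672 ± 48.9 (SD, n = 3 each), a log2 fold change of -0.65 (SE 0.08, limma adjusted p = 0.000108). With shRNA #2 it rose from 1139 ± 102 to 3369 ± 111 (SD, n = 3 each), a log2 fold change of 1.57 (SE 0.07, limma adjusted p = 6.28e-08). The difference between the hairpins was 2.20 on the log2 scale (edgeR, adjusted p = 1.59e-09), larger in size than that of any other of the 10 genes.

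TNFRSF10C, which encodes the membrane-anchored decoy DcR1 and spans 23102921 to 23117445 of chromosome 8, was barely expressed, with 15 to 29 reads per library. Its scaled reads were 17.5, 18.5 and 27.0 with NS shRNA, 22.4, 24.4 and 28.1 with shRNA #1, and 15.6, 14.1 and 14.3 with shRNA #2. The shRNA #1 libraries overlapped NS shRNA and the shRNA #2 libraries lay just below it. Neither comparison with NS shRNA passed the test, with log2 fold changes of 0.26 (95% interval -0.32 to 0.84, limma adjusted p = 0.402) and -0.47 (95% interval -1.10 to 0.17, limma adjusted p = 0.174, or 0.0463 without the trend). Between the hairpins the log2 ratio was -0.79 (edgeR, adjusted p = 0.0169), and it did not pass without shRNA #1 replicate 3 (-0.69, adjusted p = 0.0662) or by DESeq2 (adjusted p = 0.0582). In GENCODE, 27.7% of the 76-base windows of its canonical transcript also occur in other genes, among them an overlapping coding gene on the same strand. Reads from those windows may not be told apart by gene.

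Taken per kb of transcript, the decoys TNFRSF10C and TNFRSF10D made up 15.1%, 16.3% and 16.9% of the mRNA of the 4 TRAIL receptors with NS shRNA, 7.94%, 7.61% and 7.37% with shRNA #1, and 23.1%, 24.9% and 23.8% with shRNA #2. The mean share was 16.1% ± 0.963 with NS shRNA, 7.64% ± 0.286 with shRNA #1 and 23.9% ± 0.872 with shRNA #2 (SD, n = 3). The groups did not overlap, and each pair gave the smallest p possible (exact permutation test, two-sided p = 0.1). TNFRSF10D stood at 1.19 ± 0.113 times TNFRSF10A with NS shRNA, 0.345 ± 0.0439 times with shRNA #1 and 1.12 ± 0.124 times with shRNA #2 (SD, n = 3). The shRNA #1 libraries were lower than all others in this ratio (exact permutation test against NS shRNA, two-sided p = 0.1), and the NS shRNA and shRNA #2 libraries overlapped (p = 0.5, same test).

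**Figure D2:**
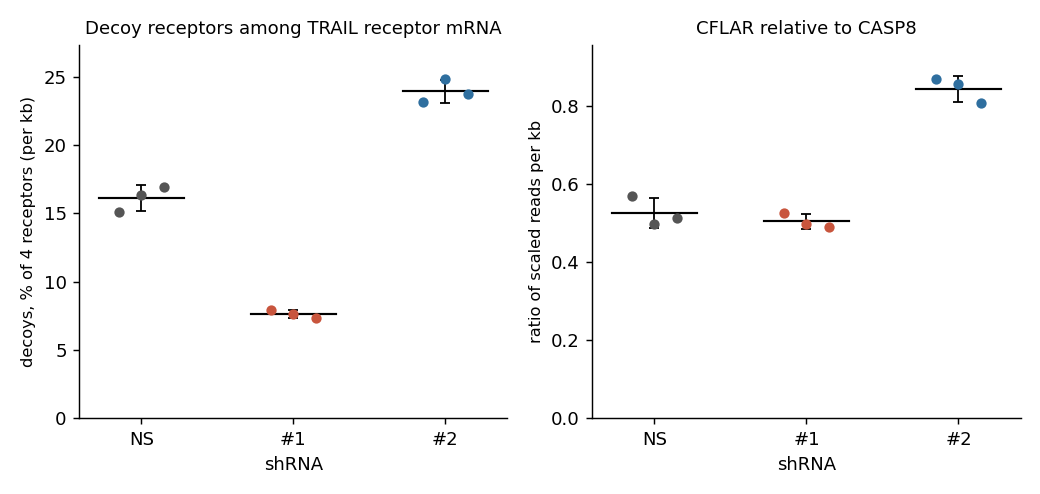
Left, share of the decoy receptors TNFRSF10C and TNFRSF10D in the mRNA of the 4 TRAIL receptors (percent, reads per kb); right, ratio of CFLAR to CASP8 (reads per kb); points are libraries, wide lines are means and error bars are the SD (n = 3). The decoy share is 16.1% with NS shRNA, 7.64% with shRNA #1 and 23.9% with shRNA #2, and the CFLAR to CASP8 ratio stands apart with shRNA #2 alone, at 0.843.

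FAS, the receptor for FAS ligand, lies on chromosome 10 from 88953813 to 89029605. It had 265, 294 and 284 scaled reads with NS shRNA, 197, 195 and 193 with shRNA #1, and 102, 121 and 119 with shRNA #2. The groups did not overlap, and the order ran from NS shRNA down to shRNA #2. The normalized count fell from 268 ± 13.9 to 186 ± 2.03 with shRNA #1 (SD, n = 3 each), a log2 fold change of -0.52 (SE 0.09, limma adjusted p = 0.000536). With shRNA #2 it fell from 290 ± 15.8 to 118 ± 10.7 (SD, n = 3 each), a log2 fold change of -1.30 (SE 0.11, limma adjusted p = 3.62e-06). The hairpins differed by -0.78 on the log2 scale (edgeR, adjusted p = 5.06e-05). FASLG, the gene of the FAS ligand, had 0 or 1 read in each library and was not tested.

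TNFRSF1A, on chromosome 12 from 6328757 to 6342114, had 4434, 4421 and 4524 scaled reads with NS shRNA, 2588, 2498 and 2636 with shRNA #1, and 4081, 3916 and 4182 with shRNA #2. The shRNA #1 libraries were far below the rest, and the shRNA #2 libraries lay slightly below NS shRNA without overlap. The log2 fold change with shRNA #1 was -0.79 (SE 0.05, limma adjusted p = 5.99e-07). With shRNA #2 it was -0.14 (SE 0.05, limma adjusted p = 0.0405), and this call was lost on leaving out 5 of the 6 libraries. The adjusted p was then 0.0665, 0.0976 and 0.0932 without NS shRNA replicate 1, 2 and 3, and 0.0899 and 0.122 without shRNA #2 replicate 1 and 2, with log2 fold changes between -0.14 and -0.11. It was also lost with no filter on low values (0.0533) and by limma without the trend (0.0643). TNFRSF1A was higher with shRNA #2 than with shRNA #1 by 0.65 on the log2 scale (edgeR, adjusted p = 4.43e-07).

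FADD, the adaptor that links death receptors to CASP8, lies on chromosome 11 from 70203296 to 70207390 and has 2 exons, and its promoter is the GC-rich one shown above. Its scaled reads were 4592, 4462 and 4157 with NS shRNA, 2542, 2685 and 2794 with shRNA #1, and 3076, 2860 and 3315 with shRNA #2. All 6 knockdown libraries were lower than the NS shRNA libraries, and the hairpins were close to each other. The normalized count fell from 4211 ± 214 to 2557 ± 125 with shRNA #1 (SD, n = 3 each), a log2 fold change of -0.72 (SE 0.06, limma adjusted p = 4.36e-06). With shRNA #2 the log2 fold change was -0.51 (SE 0.07, limma adjusted p = 7.06e-05). Between the hairpins the log2 ratio was 0.19 (edgeR, adjusted p = 0.0236). That last call was lost without shRNA #1 replicate 1 or 2 (adjusted p = 0.0821 and 0.0597) and without shRNA #2 replicate 1 or 3 (adjusted p = 0.0535 and 0.0933). It was also lost with upper quartile normalization, where the log2 ratio was 0.12 (edgeR, adjusted p = 0.148). A gene on the opposite strand shares 52.8% of the 76-base windows of FADD, and the counting is stated to use strand.

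CASP8, the initiator caspase, and CFLAR, its inhibitor, are neighbors on chromosome 2, from 201233443 to 201361836 and from 201116154 to 201176687. CASP8 had 1786, 1941 and 1970 scaled reads with NS shRNA, 1869, 1950 and 1935 with shRNA #1, and 1276, 1310 and 1396 with shRNA #2. The shRNA #1 libraries overlapped NS shRNA, whereas the shRNA #2 libraries were lower than all others. With shRNA #1 the log2 fold change was 0.02 (95% interval -0.11 to 0.14, limma adjusted p = 0.820), and with shRNA #2 it was -0.52 (SE 0.07, limma adjusted p = 5.62e-05). The hairpins differed by -0.54 on the log2 scale (edgeR, adjusted p = 7.40e-06).

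CFLAR, the competitor of CASP8 at FADD, had 5584, 5298 and 5542 scaled reads with NS shRNA, 5404, 5331 and 5208 with shRNA #1, and 6097, 6154 and 6181 with shRNA #2. The shRNA #2 libraries lay above all others by a small margin. CFLAR had a log2 fold change of -0.04 with shRNA #1 (95% interval -0.14 to 0.06, limma adjusted p = 0.422) and 0.17 with shRNA #2 (SE 0.05, limma adjusted p = 0.0118). The second call was lost without NS shRNA replicate 2 (limma adjusted p = 0.0643) and with upper quartile rescaling (log2 fold change 0.12, adjusted p = 0.0512). The difference between the hairpins was 0.20 on the log2 scale (edgeR, adjusted p = 0.00151).

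The ratio of CFLAR to CASP8, per kb of transcript, was 0.569, 0.497 and 0.512 with NS shRNA, 0.526, 0.497 and 0.490 with shRNA #1, and 0.869, 0.855 and 0.806 with shRNA #2. It was 1.60 times as high with shRNA #2 as with NS shRNA, with no overlap (exact permutation test, two-sided p = 0.1), and 0.959 times as high with shRNA #1, with overlap (p = 0.6, same test). The size of the ratio depends on the canonical CFLAR transcript, which is 14612 bases long. This fixed length cancels between groups, but a shift in isoform use could alter the ratio and was not tested. Gene-level counts do not separate the long and short forms of CFLAR, nor the isoforms of CASP8 and FAS.

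**Figure D3:**
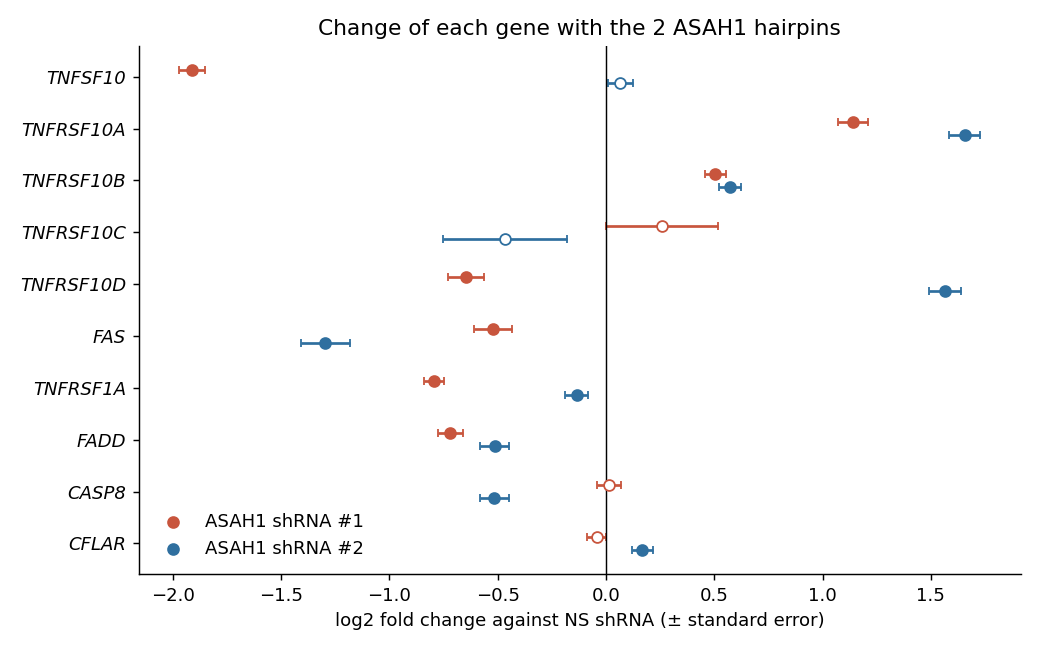
Log2 fold change against NS shRNA of the 10 genes with ASAH1 shRNA #1 (red) and ASAH1 shRNA #2 (blue), with bars of 1 standard error from limma; filled points passed an adjusted p of 0.05 and open points did not. TNFRSF10D moved in opposite directions (-0.65 and 1.57), TNFSF10 lies at -1.91 with shRNA #1 and at 0.07 with shRNA #2, and TNFRSF10A and TNFRSF10B lie to the right and FAS and FADD to the left of 0 with both hairpins.

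Levels of different genes were compared as scaled reads per kb of canonical transcript. That of CFLAR is 14612 bases long, against 1395 to 3998 for the others, and a shorter length would give CFLAR a higher level. With NS shRNA, FADD (2578 ± 130) and TNFSF10 (2421 ± 81.2) stood highest and overlapped, followed by TNFRSF1A (2054 ± 25.9), TNFRSF10B (1436 ± 41.6), CASP8 (714 ± 37.1), CFLAR (375 ± 10.6), TNFRSF10D (312 ± 27.96), TNFRSF10A (262 ± 8.03), FAS (75.96 ± 4.03) and TNFRSF10C (15.1 ± 3.76; SD, n = 3 throughout). With shRNA #1, TNFRSF10B led the order at 2039 ± 79.2, and TNFSF10, at 643 ± 42.7, overlapped TNFRSF10A at 580 ± 43.2 (SD, n = 3). With shRNA #2, TNFSF10 led at 2535 ± 135, TNFRSF10B came next at 2137 ± 55.7, and TNFRSF1A at 1870 ± 61.8 overlapped FADD at 1805 ± 133 (SD, n = 3). FAS and TNFRSF10C held the last 2 places in each group. Of the TRAIL receptors, TNFRSF10B was the most abundant in all 9 libraries.

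The remaining death receptors and ligands formed a list of 9 genes, of which 7 could be tested. With shRNA #1, 3 were higher and 2 lower, where 66.1% of all genes passed, and with shRNA #2, 4 were higher and 3 lower, where 66.9% passed. TNF, the ligand of TNFRSF1A, had 24.1 to 27.0 scaled reads with NS shRNA, 324 to 343 with shRNA #1 and 115 to 136 with shRNA #2. The log2 fold changes of TNF were 3.64 (SE 0.12, limma adjusted p = 2.44e-08) and 2.25 (SE 0.16, limma adjusted p = 1.03e-06). TNFRSF21 (death receptor 6) fell slightly with both hairpins, by log2 fold changes of -0.19 and -0.36 (limma adjusted p = 0.00277 and 0.000128). TNFRSF11B encodes osteoprotegerin, a soluble decoy that also binds TRAIL, and was picked out after its values had been seen. It had 624, 651 and 732 scaled reads with NS shRNA, 158, 153 and 124 with shRNA #1, and 761, 867 and 767 with shRNA #2. Its log2 fold changes were -2.20 with shRNA #1 (SE 0.11, limma adjusted p = 2.71e-07) and 0.26 with shRNA #2 (SE 0.09, limma adjusted p = 0.0222).

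Regulators of the receptor complex formed a list of 13 genes, 12 of them tested. With shRNA #1, 9 were higher and 2 lower, with a median log2 fold change of 0.34, beside 32.8% of all genes higher, 33.3% lower and a median of 0.00128. With shRNA #2, 6 were higher and 1 lower, with a median of 0.32, beside 33.5% higher, 33.4% lower and a median of 0.0128. CYLD, a deubiquitinase that limits survival signals from TNF receptors, rose by log2 fold changes of 0.99 and 1.32 (limma adjusted p = 1.36e-07 and 1.93e-08). BIRC3, a ubiquitin ligase of the TNF receptor complex, rose by 0.82 and 0.78 on the log2 scale (limma adjusted p = 1.24e-06 and 1.02e-06). PEA15, a death effector domain protein that can block CASP8 recruitment, rose by 0.83 and 0.50 on the same scale (limma adjusted p = 3.50e-07 and 1.42e-05). TRADD, the adaptor of TNFRSF1A, fell with both, with log2 fold changes of -1.01 and -0.83 (limma adjusted p = 0.000100 and 5.83e-05). TNFAIP3 (A20), a brake on TNF signals picked out after its values had been seen, had 1406 to 1525 scaled reads with NS shRNA, 6161 to 6538 with shRNA #1 and 1329 to 1407 with shRNA #2.

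Downstream caspases and genes of the mitochondrial arm formed a list of 11 genes, all tested. With shRNA #1, 5 were higher and 5 lower, with a median log2 fold change of 0.04, and with shRNA #2, 6 were higher and 3 lower, with a median of 0.30. Over all genes, 66.1% and 66.9% passed, about evenly in each direction, with the medians of all genes given above. CASP10, an initiator caspase akin to CASP8, fell with log2 fold changes of -0.87 and -1.31 (limma adjusted p = 3.94e-05 and 7.37e-06). CASP6 fell as well, at -0.95 and -0.73 (limma adjusted p = 1.95e-06 and 8.28e-06). CYCS, which encodes the cytochrome c that activates APAF1, rose by log2 fold changes of 0.53 and 0.84 (limma adjusted p = 8.67e-06 and 7.98e-07).

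**Figure D4:**
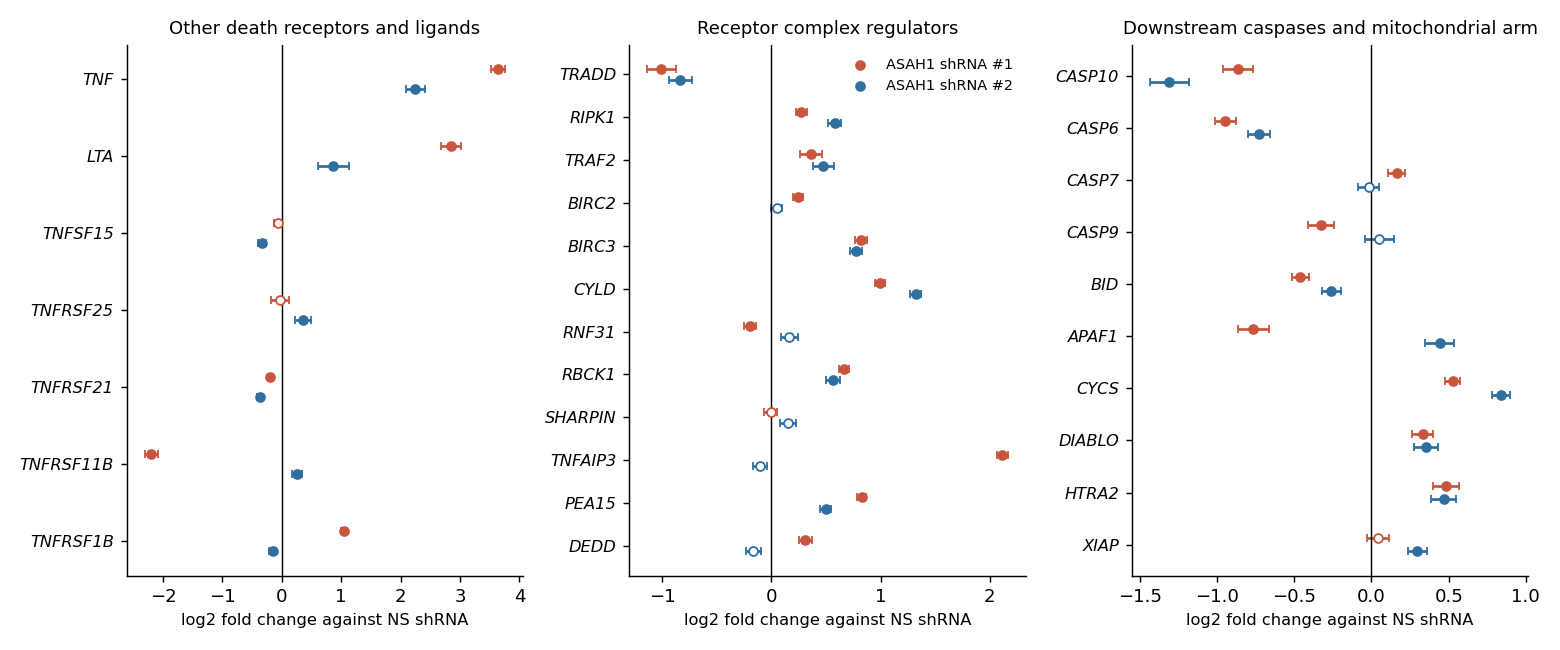
Log2 fold change against NS shRNA, with bars of 1 standard error from limma, of tested genes from 3 lists of pathway partners with ASAH1 shRNA #1 (red) and ASAH1 shRNA #2 (blue); filled points passed an adjusted p of 0.05 and open points did not, and the horizontal scale differs between panels. TNF lies furthest right at 3.64 and 2.25, and the hairpins lie far apart for TNFRSF11B (-2.20 and 0.26) and TNFAIP3 (2.12 and -0.10).

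Among those of the 10 genes that passed with both hairpins, TNFRSF10A had the largest mean absolute log2 fold change. Of 11609 genes with enough reads, the profiles most like it over the 9 libraries were those of CA5BP1, PARP12 and NFXL1, with Pearson r of log2 values of 0.998, 0.997 and 0.997. These r values describe libraries that fall into 3 groups, and they carry no test.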

How the data were processed

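RNA from 9 libraries of MDA-MB-231 cells was analysed. According to the methods, single-end 76-base reads were trimmed with Trimmomatic 0.36 and aligned to hg38 with STAR 2.7.1a. They were counted on UCSC genes by htseq-count on the reverse strand, and the counts were analysed with DESeq2 1.28. Another paragraph of the methods names RSEM and edgeR, and poly(A) selection and ribosomal RNA depletion are both described. The deposited values are a normalized signal, a count divided by 1 factor per library. The 6 columns of the authors' own DESeq2 comparisons (mean, log2 fold change, standard error, statistic, p-value and adjusted p-value) were not used.

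In each library 100.0% of values gave whole reads, within 0.05 of a read, and the NS shRNA reads were identical in both tables, with 0 differences. Gene symbols turned into dates (28) were restored from the other table. The tools were Python 3.11.15 and, in R 4.3.3, DESeq2 1.42.0, edgeR 4.0.16 and limma 3.58.1. For each hairpin against NS shRNA, log2(normalized count + 1) was fitted by limma (intensity trend, two-sided) where the mean in the table reached 10, with Benjamini-Hochberg adjustment at 0.05 over all genes tested. The +1 lowers the fold change of low genes. The hairpins were compared on recovered reads by edgeR (TMM scaling, quasi-likelihood test). The fits were also run on simulated counts with few changed genes, a setting unlike these data, where most genes passed. Positions come from GENCODE v44, and the UCSC annotation was not used here.

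The 10 genes and the lists of partners were chosen with earlier results of these data known. The rule named the 10 genes, ASAH1, up to 4 genes per list that passed in the same direction with both hairpins and averaged 100 or more, and the 3 genes most like the gene with the largest mean change. Of these, 1 item is not reported here. Depth limits TNFRSF10C most. Alternatives covered the pseudocount, the filter, the trend, the scaling, the tool, 1 fit of all libraries, the replicate block and each library left out.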

Additional observations from a re-analysis of the deposited data

Results flagged for a closer look

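The response to the 2 hairpins differed, by edgeR's quasi-likelihood test of shRNA #2 against shRNA #1, for 9 of the 10 genes. The log2 ratios were 2.20 for TNFRSF10D, 1.97 for TNFSF10, 0.65 for TNFRSF1A, 0.50 for TNFRSF10A, 0.20 for CFLAR and 0.19 for FADD, and they were -0.79 for TNFRSF10C, -0.78 for FAS and -0.54 for CASP8. Over all genes, 64.0% differed between the hairpins, so a difference was common.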

How the results depend on the processing

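Of 457 recomputed values for the 10 genes, 436 kept their direction and their side of the threshold, 18 kept the direction but no longer passed, 1 newly passed and 2 changed sign. The 2 that changed sign were near 0: CASP8 with shRNA #1 without NS shRNA replicate 1 (-0.0271, with the values over the libraries left out running to 0.0429) and TNFRSF10B between the hairpins with upper quartile normalization (-0.0197). The count of the 10 genes that passed was 7 with shRNA #1 in each alternative run, 6 to 8 with shRNA #2 and 8 to 9 between the hairpins. With upper quartile scaling, CFLAR with shRNA #2 (adjusted p = 0.0512) and FADD between the hairpins (0.148) were lost. TNFRSF1A with shRNA #2 was also lost with no filter (0.0533) and without the trend (0.0643), and TNFRSF10C with shRNA #2 passed without the trend (0.0463). The cause was not tested. With edgeR on the recovered reads 9465 and 9547 genes passed for shRNA #1 and shRNA #2. TNFRSF10C could not be tested under the stricter filter, and its 15 to 29 reads limit it most.

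Deviations of same-numbered libraries from their group means correlated at -0.304 to 0.201. This gives no clear sign that the replicate numbers pair the libraries, but 3 libraries per group cannot exclude it. With the replicate block, 7 of the 10 genes passed with shRNA #1, 6 with shRNA #2 (without CFLAR and TNFRSF1A, adjusted p = 0.0840 and 0.160) and 9 between the hairpins, and over all genes 8237, 8526 and 8590 passed.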
